A study of Mus musculus with 3 samples.

Results

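The 9 genes Ccr2, Ccr4, Ccr6, Ccr7, Ccr8, Cxcr3, Cxcr4, Cxcr5 and Cxcr6 encode chemokine receptors by which helper T cells are usually told apart and sent to different tissues. They were found by symbol among the 50600 genes of the deposited tables, and all 9 matched. The samples are 3 total RNA sequencing libraries, made from primary mouse CD4 cells of the interferon gamma secreting Th1 lineage, strain C57BL/6NJ, with no genetic change or agent named in the labels. The file header of replicate 1 places that library at 48 h of a time course, and the headers of replicates 2 and 3 were not read for the hour. The labels give an unknown age and an uncollected sex, and all 3 libraries carry 1 donor identifier. They form 1 group, numbered as biological replicates 1, 2 and 3, so the receptors were compared with each other inside each library and between the libraries. No label says that the cultures or animals were separate, and differences between libraries may be technical.

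Chemokine receptors are G protein coupled receptors that turn a gradient of a secreted chemokine into directed movement through Gi proteins and the Rac and Rap GTPases. CCR7 reads CCL19 and CCL21 and takes naive and central memory T cells into lymph nodes. Helper lineages are known for other receptors: CXCR3 (for CXCL9 and CXCL10) and CXCR6 (for CXCL16) on Th1 cells, CCR4 (for CCL17 and CCL22) and CCR8 (for CCL1) on Th2 cells, CCR6 (for CCL20) on Th17 cells, and CXCR5 (for CXCL13) on follicular helper T (Tfh) cells. CCR2 (for CCL2) and CXCR4 (for CXCL12) are used more widely, by monocytes and by most leukocytes. T-bet, the product of Tbx21, is the lineage regulator known to switch on Cxcr3.

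Depth differed widely between the libraries. Replicate 1 held 4742025 counts, replicate 2 only 50627 and replicate 3 3543816, where a count is 1 sequenced fragment assigned to a gene. Levels are given as TPM, counts per exonic length scaled so that every library has the same sum over all genes, with exact Poisson 95% intervals that cover counting error only. For a count of 0 the limit printed is 3 counts, which is one-sided and below the 3.69 counts that the two-sided interval reaches. It comes, for the 9 genes, to 0.207 to 1.19 TPM in replicate 1, 18.3 to 105 TPM in replicate 2 and 0.225 to 1.30 TPM in replicate 3. Of the 50600 genes, 8189 have exon positions under a gene of the other strand. They took 52.7%, 57.8% and 72.2% of the counts in replicates 1, 2 and 3. The remaining genes held 36.4%, 31.7% and 19.4% of the TPM. Counting took the strand of the first read as that of the gene, per the header of replicate 1, the only one read for this setting. Which strand the kit reads is not given in the sources used here. Whether a larger share of receptor fragments lies on the strand not counted was not tested. Of the 9 receptors, 8 share no exon position with the other strand, and Cxcr5 shares 110 bp (3.30% of its exons) with Bcl9l, a coactivator gene of Wnt signalling that had 47, 0 and 43 counts in replicates 1, 2 and 3. Cxcr6 lies within the span of the opposite-strand gene Fyco1 without sharing an exon position.

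The T cell and Th1 markers were detected, beside some markers of other cell types. All 8 T cell markers reached 1 TPM in every library, with Trac, which encodes the constant part of the T cell receptor alpha chain, at 348, 221 and 119 TPM in replicates 1, 2 and 3. Cd5, Thy1 and Cd247 followed by mean TPM, and 56.4% of the exons of Cd247 lie under the other strand. Of 6 Th1 markers 5 reached 1 TPM in every library. They were Tbx21, Il12rb1, Stat4, Il12rb2 and Ifng, the gene of interferon gamma, which had 54.1, 63.8 and 17.2 TPM. Il12rb2 has 40.0% of its exons under the other strand. The sixth, Il18r1, a chain of the interleukin 18 receptor, had no count in replicate 2. Of all protein-coding genes, 29.4% reached 1 TPM in every library. Of B cell markers Ms4a1, Pax5 and Blk had no count in any library, and of myeloid markers Lyz2, Itgam, Adgre1, Cd14 and Fcgr3 had none. Summed over each list of 8, B cell markers came to 30.1 to 104 TPM, led by Ighm, and myeloid markers to 105 to 167 TPM, led by Csf1r, of which 17.8% lies under exons of Hmgxb3. Csf1r had 1096, 10 and 1606 counts in replicates 1, 2 and 3, and Hmgxb3 had 287, 4 and 123. The part of this overlap in the Csf1r level was not tested. In the same order, the 6 Th1 markers summed to 259, 248 and 127 TPM, and the myeloid list to 105, 115 and 167 TPM. CD8 T and NK cell markers came to 8.35 to 37.8 TPM, and Cd8a, Gzma, Prf1, Ncr1, Klrb1c and Gzmk had no count, while Cd8b1 had 21, 1 and 13 counts. The part of other cells in the receptor levels was not tested.

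The RefSeq promoter table (GRCm38.p6) has entries for 7 of the 9 genes, those other than Ccr7 and Cxcr5. The 250 bases before the RefSeq start are shown 5′ to 3′ for the receptors named for Th2 cells and for those named for Th1 cells. The Th2 receptors had 228, 3 and 79 counts (Ccr4) and 51, 0 and 16 counts (Ccr8) in replicates 1, 2 and 3. Cxcr3 and Cxcr6 had at most 6 counts in a library. Capitals mark matches on either strand to a T-box site, the kind bound by T-bet, or to a GATA site, the kind bound by the Th2 regulator GATA3. The T-box letters searched were GTGTGA. For the GATA site they were AGATAA, and the motifs share no match position here. The windows are chr9:114496545-114496794 (minus strand) for Ccr4, chr9:120091883-120092132 (plus) for Ccr8, chrX:101734148-101734397 (minus) for Cxcr3 and chr9:123806227-123806476 (plus) for Cxcr6. The RefSeq starts are not the 5′ ends of the genes as counted. The Ccr4 window lies wholly inside the counted span of that gene (114490316 to 114504916), and the other windows reach into theirs.
Ccr4: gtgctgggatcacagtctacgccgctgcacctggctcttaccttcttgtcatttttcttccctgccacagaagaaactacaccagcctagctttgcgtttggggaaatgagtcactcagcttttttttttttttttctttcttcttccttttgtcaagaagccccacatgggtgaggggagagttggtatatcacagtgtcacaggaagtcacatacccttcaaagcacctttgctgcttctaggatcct
Ccr8: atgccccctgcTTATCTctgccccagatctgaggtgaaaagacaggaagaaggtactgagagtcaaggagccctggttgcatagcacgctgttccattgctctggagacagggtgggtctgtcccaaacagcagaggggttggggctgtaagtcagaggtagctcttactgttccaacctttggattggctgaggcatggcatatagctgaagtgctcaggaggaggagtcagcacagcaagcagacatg
Cxcr3: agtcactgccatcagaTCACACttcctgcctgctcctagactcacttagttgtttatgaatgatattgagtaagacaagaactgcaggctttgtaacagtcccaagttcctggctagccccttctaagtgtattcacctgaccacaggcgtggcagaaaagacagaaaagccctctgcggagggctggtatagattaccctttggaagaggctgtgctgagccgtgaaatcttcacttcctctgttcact
Cxcr6: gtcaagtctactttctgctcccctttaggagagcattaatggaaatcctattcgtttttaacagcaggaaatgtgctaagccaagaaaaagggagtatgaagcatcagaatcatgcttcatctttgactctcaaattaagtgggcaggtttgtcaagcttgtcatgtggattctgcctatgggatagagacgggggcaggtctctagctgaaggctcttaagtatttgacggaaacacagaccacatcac
The Cxcr3 window holds 1 T-box match and no GATA match, and the Ccr8 window holds 1 GATA match and no T-box match. Neither motif is spelled out in the Ccr4 or Cxcr6 window. Among 32851 promoter windows of this length, 12.3% hold the T-box letters and 9.99% the GATA letters, so such matches are common, and they describe the letters without showing binding.

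Ccr7, the lymph node receptor, stood highest of the 9 in every library. Behind it came Ccr6 and Ccr4 at nearly the same level, then Ccr8 and Cxcr5. On the strand counted, the Th1 receptors Cxcr3 and Cxcr6 were at the edge of detection and Ccr2 had no count at all. In bulk RNA, few cells with much of a transcript and many cells with little cannot be told apart. Of the 9, 3 reached 1 TPM in every library, against 29.4% of protein-coding genes. Without the shallow replicate 2 the number was 5, against 44.3% of protein-coding genes.

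**Figure D1:**
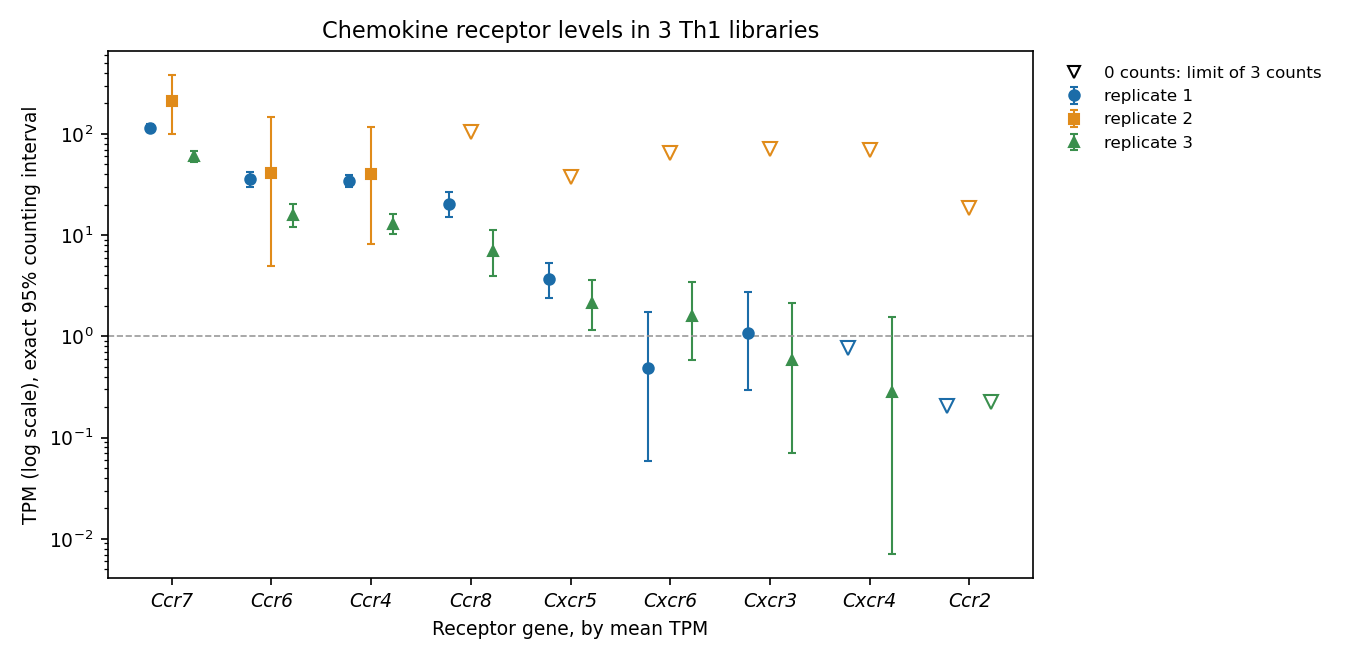
TPM of the 9 receptors in each library on a log axis, with bars for exact Poisson 95% intervals, open triangles for the limit of 3 counts where a gene had none, and a dashed line at 1 TPM. Ccr7 is highest in all 3 libraries, at 113, 209 and 60.0 TPM in replicates 1, 2 and 3, and the limits shown for replicate 2 run from 18.3 to 105 TPM.

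Ccr7 (chromosome 11, 99144196 to 99155077, minus strand, mm10) had 480, 10 and 234 counts in replicates 1, 2 and 3. These made 113 TPM (interval 103 to 124), 209 TPM (100.1 to 384) and 60.0 TPM (52.6 to 68.2). More than 95% of protein-coding genes were lower in each library (95.8%, 98.2% and 95.1% in replicates 1, 2 and 3). The intervals of replicates 1 and 3 do not overlap on this scale, and that of replicate 2 covers replicate 1 only. Scaled over genes without opposite-strand exons, Ccr7 stood at 311, 659 and 310 TPM in replicates 1, 2 and 3. From replicate 1, 5.83 counts were to be looked for in replicate 2 after TMM scaling.

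Ccr4, the receptor for CCL17 and CCL22 (chromosome 9, 114490316 to 114504916, minus strand), had 228, 3 and 79 counts in replicates 1, 2 and 3. Its levels were 34.4 TPM (30.1 to 39.2) in replicate 1, 40.0 TPM (8.26 to 117) in replicate 2 and 13 TPM (10.3 to 16.1) in replicate 3. Ccr6, the receptor for CCL20 (chromosome 17, 8236043 to 8257127, plus strand), had 154, 2 and 63 counts, which gave 35.5 TPM (30.1 to 41.5), 40.7 TPM (4.93 to 147) and 15.8 TPM (12.1 to 20.2). Ccr4 and Ccr6 thus lay at like levels in replicates 1 and 3, while the 3 and 2 counts of replicate 2 are too few to show likeness. For both, the TPM interval of replicate 3 lay below that of replicate 1 on this scale. Scaled over genes without opposite-strand exons, the levels in replicates 1 and 3 were 94.5 and 66.8 TPM for Ccr4, and 97.4 and 81.3 TPM for Ccr6.

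Ccr8, the receptor for CCL1 (chromosome 9, 120092114 to 120094906, plus strand), had 51, 0 and 16 counts. It stood at 20.3 TPM (15.1 to 26.7) in replicate 1 and 6.91 TPM (3.95 to 11.2) in replicate 3. Scaled from replicate 1, 0.620 counts were to be looked for in replicate 2, so its 0 there could not show a difference. Cxcr5, the receptor for the B cell follicle chemokine CXCL13 (chromosome 9, 44511787 to 44561877, minus strand), had 26, 0 and 14 counts and stood at 3.64 TPM (2.38 to 5.34) in replicate 1 and 2.13 TPM (1.17 to 3.58) in replicate 3.

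The receptors that mark Th1 cells were close to the limit of detection on the strand counted. Cxcr3 (chromosome X, 101731535 to 101734269, minus strand) had 4, 0 and 2 counts, or 1.08 TPM (0.294 to 2.76) in replicate 1 and 0.586 TPM (0.0710 to 2.12) in replicate 3. Cxcr6 (chromosome 9, 123806475 to 123811760, plus strand) had 2, 0 and 6 counts, or 0.484 TPM (0.0586 to 1.75) in replicate 1 and 1.58 TPM (0.578 to 3.43) in replicate 3. Their intervals overlap in both deep libraries, and their order differed between them. Tbx21, which encodes the regulator known to act on Cxcr3, had 522, 6 and 255 counts in the same libraries, or 98.0, 99.6 and 52.0 TPM.

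Of the receptors in wider use, Cxcr4 (chromosome 1, 128588199 to 128592293, minus strand) had 0, 0 and 1 counts, and Ccr2 (chromosome 9, 124101950 to 124113557, plus strand) had none. For Ccr2, the longest of the 9 at 6760 bp of exons, the 3-count limit is 0.207 TPM in replicate 1, 18.3 TPM in replicate 2 and 0.225 TPM in replicate 3, and the two-sided interval ends at 0.255, 22.5 and 0.277 TPM. For Cxcr4 the single count gave 0.281 TPM (0.00710 to 1.56) in replicate 3, and for the 0 of replicate 1 the two-sided interval ends at 0.953 TPM.

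Ratios of counts per length within a library do not depend on how that library was scaled. The 9 genes make 36 pairs, and the exact 95% interval of the ratio left out equality for 30 of the 35 pairs with counts in replicate 1. In replicate 2 it did so for 8 of 21 pairs, and in replicate 3 for 28 of 36, always with the receptor of higher mean TPM on top. The 8 pairs of replicate 2 were those of Ccr7 over each other receptor. No p-value over the libraries is given for the ratios, since 3 libraries are too few for an exact test to reach 0.05.

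Ccr7 was above Ccr6 by a log2 ratio of 1.68 (1.41 to 1.95) in replicate 1, 2.36 (0.13 to 5.59) in replicate 2 and 1.93 (1.52 to 2.35) in replicate 3, a mean of 1.99 ± 0.34 (SD, n = 3). Over Ccr4 the ratio was 1.72, 2.38 and 2.21, a mean of 2.10 ± 0.34 (SD, n = 3). The lymph node receptor was thus above the next receptors in each of the 3 libraries.

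Ccr6 and Ccr4 could not be ordered. Their log2 ratio was 0.04 (-0.26 to 0.34) in replicate 1, 0.02 (-3.56 to 3.15) in replicate 2 and 0.28 (-0.22 to 0.78) in replicate 3, and each interval holds 0. The 1.03-fold ratio of replicate 1 has an interval of 0.834 to 1.27, which bounds the difference there. Both were above Ccr8, Ccr4 by 1.70-fold (1.25 to 2.35) in replicate 1 and 1.88-fold (1.09 to 3.44) in replicate 3, and Ccr6 by 1.75-fold (1.27 to 2.45) and 2.28-fold (1.30 to 4.23). Ccr8 was above Cxcr5 by 5.56-fold (3.40 to 9.29) in replicate 1 and 3.24-fold (1.48 to 7.17) in replicate 3.

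**Figure D2:**
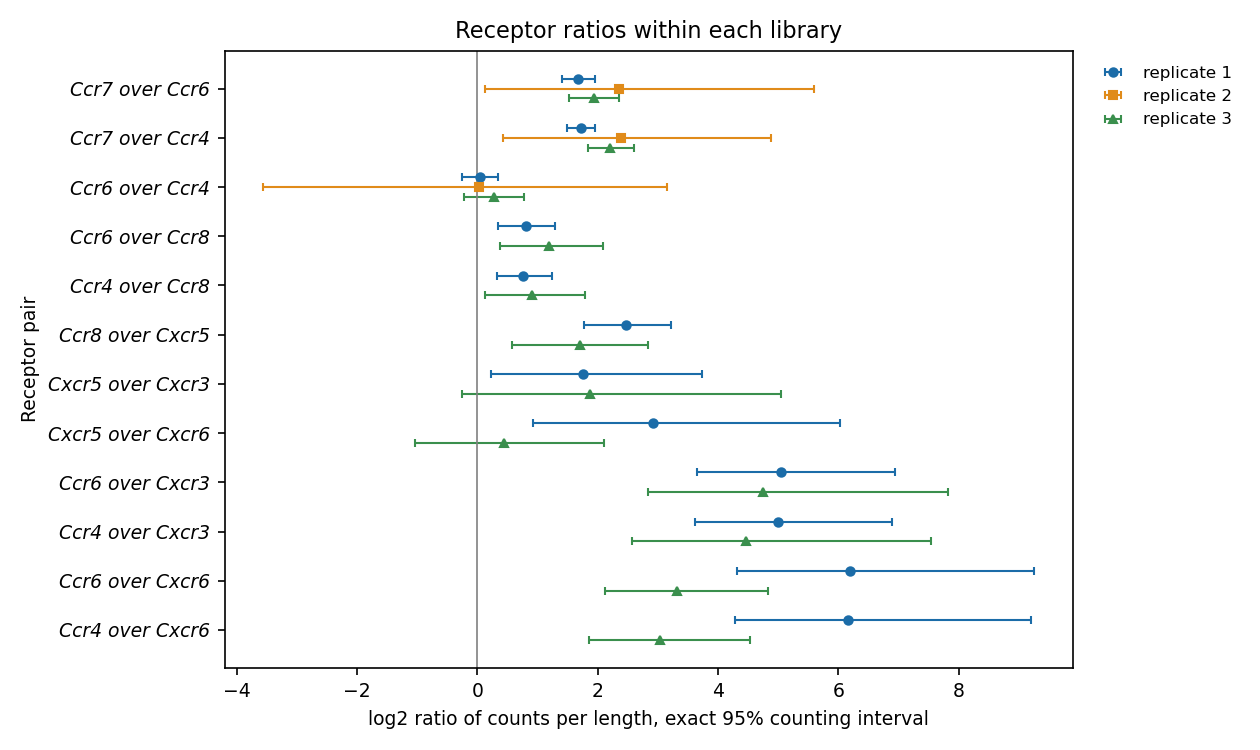
Log2 ratio of counts per length for 12 receptor pairs, with exact 95% counting intervals, in the libraries that had counts of both genes; the gene named first is on top of the ratio. The 3 intervals of Ccr6 over Ccr4 all cross 0, and those of Ccr6 and Ccr4 over the Th1 receptors Cxcr3 and Cxcr6 all lie above it in replicates 1 and 3.

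The Th2 receptor Ccr4 and the Th17 receptor Ccr6 stood above the Th1 receptors in both deep libraries. Ccr4 exceeded Cxcr3 by 31.9-fold (12.3 to 118) in replicate 1 and 22.1-fold (5.92 to 186) in replicate 3, and Ccr6 exceeded it by 32.9-fold (12.6 to 122) and 26.9-fold (7.14 to 227). Against Cxcr6 the ratios of Ccr4 were 71.2-fold (19.5 to 591) and 8.22-fold (3.61 to 23.1), intervals that overlap. In replicate 2, 3 counts of Ccr4 and 2 of Ccr6 against 0 for both Th1 receptors set no order. Cxcr5 was above Cxcr3 by 3.38-fold (1.17 to 13.3) in replicate 1, and by 3.64-fold with an interval of 0.835 to 33.0 in replicate 3. Against Cxcr6, its ratio was 7.53-fold (1.89 to 65.5) in replicate 1 and 1.35-fold (0.488 to 4.29) in replicate 3, so the Tfh receptor was not set apart from the Th1 receptors in replicate 3.

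Summed by lineage, Ccr7 made up 54.3%, 72.1% and 59.9% of the receptor TPM in replicates 1, 2 and 3. The Th2 receptors Ccr4 and Ccr8 came to 26.2%, 13.8% and 19.8%, and Ccr6, alone for Th17 cells, to 17.0%, 14.1% and 15.7%. The Th1 receptors Cxcr3 and Cxcr6 made 0.749%, 0% and 2.16%, and Cxcr5 1.75%, 0% and 2.13%. As shares of counts, the Th1 receptors took 6 of 945 receptor counts in replicate 1 (0.635%, exact Clopper-Pearson interval 0.233% to 1.38%) and 8 of 415 in replicate 3 (1.93%, 0.836% to 3.76%). In replicate 2 they took 0 of 15, which allows up to 21.8% by the same two-sided interval, so that library says little of the minor classes.

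**Figure D3:**
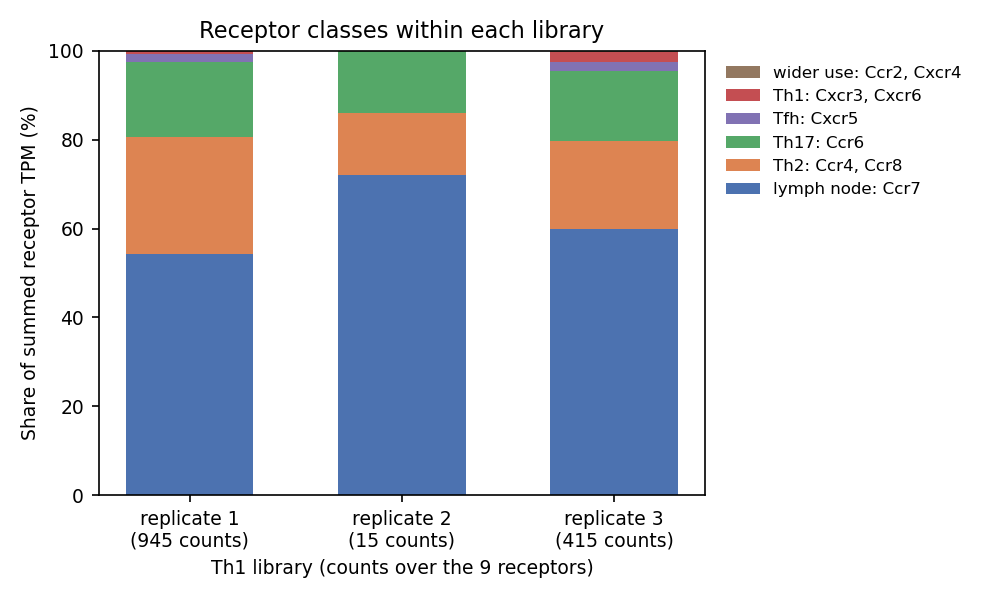
Share of the summed TPM of the 9 receptors taken by each class in each library, in percent, with the number of receptor counts under each bar. Ccr7 makes the largest share in each, at 54.3%, 72.1% and 59.9%, and the Th1 class stays at or below 2.16%.

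Whether a receptor differed between the deep libraries depended on how they were scaled: 1 receptor was called after TMM scaling, 4 on total counts, and none on the total of genes without opposite-strand exons. Each gene with at least 10 counts over replicates 3 and 1 was tested by an exact two-sided binomial test against the TMM-scaled totals, and p-values were adjusted by Benjamini-Hochberg over all genes. Of 12910 genes, 22.5% were higher and 25.0% lower in replicate 3 at an adjusted p under 0.05, so 47.5% were called. This compares 2 libraries and not 2 conditions. After TMM the 5 receptors tested gave 1 call: Ccr4 was lower in replicate 3, by a log2 ratio of -0.65 (exact test, adjusted p = 0.00166; 79 counts in replicate 3 and 228 in replicate 1). The ratios of the others were -0.15 for Ccr7 (adjusted p = 0.289), -0.41 for Ccr6 (0.119), -0.79 for Ccr8 (0.118) and -0.01 for Cxcr5 (1.0), all by the exact test. Cxcr3, Cxcr6, Cxcr4 and Ccr2 had too few counts for it.

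These ratios follow the scaling. After TMM, the 7888 tested genes without opposite-strand exons had a median log2 ratio of -0.35 (quartiles -0.58 and -0.06), and the 5002 with such exons a median of 0.70. Relative to the first median, Ccr4 and Ccr8 lay below it and outside its quartiles, Ccr6 near it and Ccr7 above it. Cxcr5 belongs to the genes with such exons, and its -0.01 lay within the quartiles of that class (-0.26 and 1.24). On total counts Ccr6, Ccr7 and Ccr8 were called lower as well (log2 ratios -0.87, -0.62 and -1.25). Scaled to the total of genes without opposite-strand exons, the call of Ccr4 was lost (log2 ratio -0.34, exact test, adjusted p = 0.190). The split of calls moved with the scaling: 47.4% of called genes were higher in replicate 3 after TMM, 57.4% with DESeq2 size factors, 25.6% on total counts and 84.3% on the total of genes without opposite-strand exons.

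**Figure D4:**
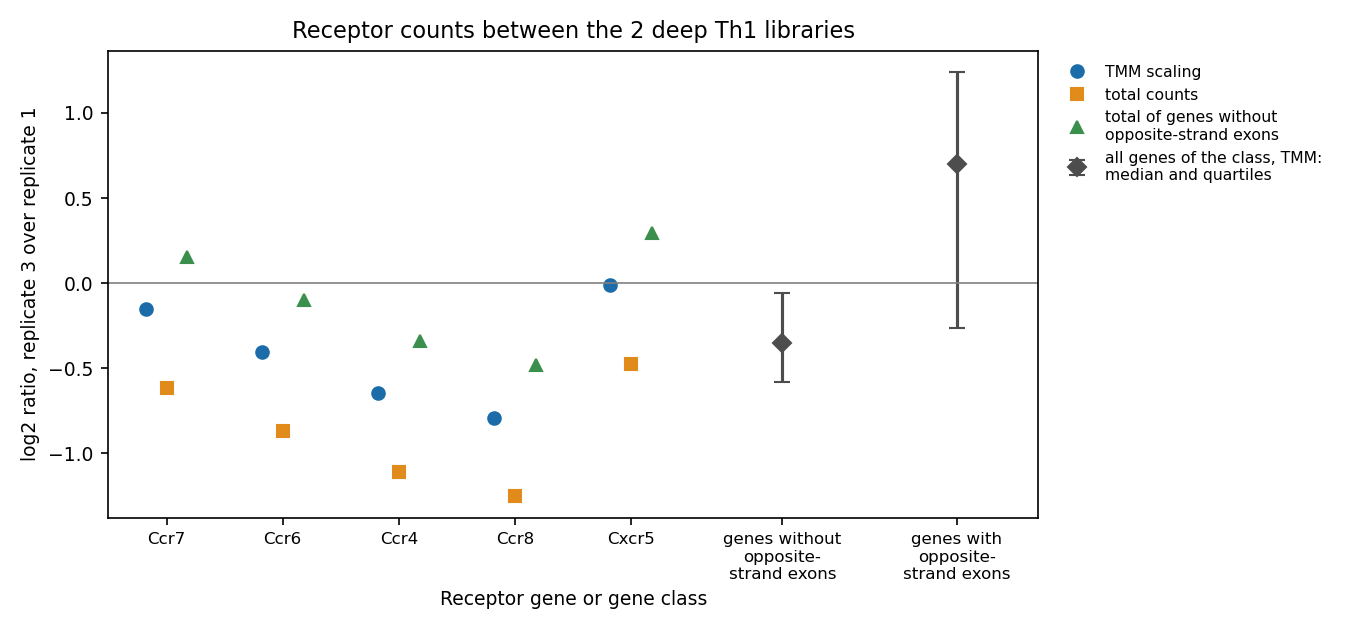
Log2 ratio of replicate 3 to replicate 1 for the 5 receptors tested, under 3 scalings, beside the median and quartiles of all tested genes without and with opposite-strand exons after TMM scaling. A change of scaling shifts all receptors by the same amount, so Ccr4 lies at -0.65 after TMM, -1.11 on total counts and -0.34 on the total of genes without opposite-strand exons.

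By position, 5 of the 9 genes lie on chromosome 9, as do 15 of 25 chemokine receptor genes examined. Of these 5, Ccr4 and Ccr8 had more than 50 counts in replicate 1, Cxcr5 had 26, Cxcr6 had 2 and Ccr2 had none. Ccr1, Ccr1l1, Ccr3 and Ccr2 are close relatives in sequence. The command in the header of replicate 1 shows no option to count fragments that map to several places, so reads common to these genes could be missing from each.

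Of the 16 other receptors, decoy and atypical ones included, 1 reached 1 TPM in every library, against 29.4% of protein-coding genes. This receptor was Ackr4, a scavenging receptor that takes up CCL19 and CCL21, with 27.3, 46.0 and 42.6 TPM in replicates 1, 2 and 3. Acad11, which had 60, 0 and 27 counts, overlies 8.90% of its exons on the other strand. The log2 ratio of replicate 3 to replicate 1 after TMM was 1.4 for Ackr4, where genes with opposite-strand exons had a median of 0.70 (upper quartile 1.24). Ccr7, for the same ligands, had -0.15, where genes without such exons had a median of -0.35. The part of the overlap in the Ackr4 level and ratio was not tested. The next by mean TPM were Ccr10, Xcr1 and Ccrl2, each at most 1.35 TPM in any library. Ccr1, Ccr1l1, Ccr3, Cxcr1, Ackr1, Ackr2, Ackr3 and Cmklr1 had no count.

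Ligands of the 9 receptors were scarce. Of 16, 2 reached 1 TPM in each deep library but not in replicate 2, and 10 had no count: Ccl2, Ccl7, Ccl12, Ccl22, Ccl20, Ccl19, Ccl21a, Ccl8, Cxcl11 and Cxcl12. Of protein-coding genes, 44.3% reached 1 TPM in both deep libraries, and 8502 of 21764 had no count in any library. Ccl21a has near-identical copies in the mouse genome, and its 0 is uncertain. Ccl1, the ligand of Ccr8, had 57, 0 and 16 counts, beside 51, 0 and 16 for Ccr8 itself. Cxcl16, the ligand of Cxcr6, had 28, 0 and 34 counts, with 18.3% of its exons under Zmynd15. Ccl17 and Cxcl10 had at most 3 counts in a library.

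The machinery that acts behind the receptors was expressed. All 3 libraries had at least 1 TPM of 24 of the 31 signalling genes, and the deep ones of 26. Of protein-coding genes, 29.4% and 44.3% passed the same rules. The median log2(TPM + 1) of this list was 4.96, 4.67 and 3.81 in replicates 1, 2 and 3, against 0.72, 0 and 0.54 over all 21764 protein-coding genes. The GTPase genes Rap1b (145 ± 57.4 TPM; SD, n = 3) and Rac2 (128 ± 50.6 TPM), the Gi subunit gene Gnai2 (117 ± 50.6 TPM) and Rac1 (77.8 ± 21.0 TPM; 51.4% of its exons under the other strand) led it, and Grk3 and Rgs18 had no count. Between replicates 3 and 1, 16 of the 27 tested were lower in replicate 3 and none was higher by the exact test after TMM. Over all genes 25.0% were lower and 22.5% higher. Of the 27, 24 lack opposite-strand exons, and tested genes without such exons had a median log2 ratio of -0.35, beside -0.48 for the list. The share of that class called lower was not computed. The number of signalling genes lower in replicate 3 followed the scaling. It was 14 with DESeq2 size factors, 26 on total counts and 4 (with 1 higher) on the total of genes without opposite-strand exons. Rgs1, an RGS gene that damps chemokine receptor signals, had 1163, 11 and 428 counts.

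At least 1 TPM was seen in all 3 libraries for 7 of 14 transcription factor genes tied to these receptors, and in the deep ones for 9. The same rules were met by 29.4% and 44.3% of protein-coding genes. Tcf7, a factor of naive and memory T cells, stood highest at 112 ± 44.9 TPM, and Tbx21 followed at 83.2 ± 27.0 TPM (SD, n = 3). Foxp3 (78.9 ± 12.5 TPM) has 14.8% of its exons under the other strand and Lef1 (25.1 ± 8.39 TPM) 13.7%. In replicates 1, 2 and 3 Foxp3 stood at 71.0, 72.5 and 93.4 TPM, and Tbx21 at 98.0, 99.6 and 52.0 TPM. Foxp3 had 606, 7 and 734 counts, and Ccdc22, which overlies its exons on the other strand, had 4, 0 and 8. The part of the overlap in the Foxp3 level was not tested. Maf had no count. Klf2, a factor of quiescent T cells that favours lymph node homing, had 3, 0 and 0 counts in the libraries where Ccr7 had 480, 10 and 234.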

How the data were processed

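The deposited files hold raw fragment counts per gene, made by the authors with featureCounts 1.4.6-p4 on the GENCODE M13 annotation, per the file headers. The header of replicate 1 gives read pairs mapped at both ends and strand setting 1, and these options were not read for replicates 2 and 3. Coordinates are those of mm10, per the labels. The labels link a poly(A) protocol but call the assay total RNA-seq. Another deposited column gives each gene's exonic length in bp. From these, CPM and TPM were computed here. Symbols matched for 50376 of 50600 genes, and biotypes came from GENCODE M21. Exon overlap used bedtools 2.31.1. Ratios of a gene pair have exact Clopper-Pearson 95% intervals and levels exact Poisson ones. With 1 group, no test between groups was possible; replicates 3 and 1 were compared over all genes by an exact binomial test (smaller tail doubled), with TMM factors from edgeR 4.0.16, and DESeq2 1.42.0 size factors as an alternative. Poisson counts were simulated around a mean shared by both libraries, multiplied by their TMM factors, and 12921 genes were tested. They hold no spread beyond counting error and no error of scaling. On them the test called 96.0% of genes with 100 or more counts changed 2-fold and 26.0% of those with 20 to 99 counts. Changes of 4-fold were called in 100% and 98.0%, and unchanged genes in 0.0732% and 0.0605%. These rates do not give the error of the test on the real counts. Software was R 4.3.3, Python 3.11.15 and scipy 1.17.1. The 9 receptors and all gene lists were chosen with earlier results of these data known. All receptors are named; of other lists, the 4 members highest by mean TPM and those with no count, and overlap partners of a receptor; some list members are not reported here. Hmgxb3, Acad11, Zmynd15, Fyco1, Ccdc22, Il12rb2, Il18r1, Rgs1, Klf2 and the ligands set beside their receptors were named after their values were seen. Alternatives changed the unit, scaling, filter, threshold and test and left out each replicate in turn.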

Additional observations from a re-analysis of the deposited data

How the results depend on the processing

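No paired analysis was possible because the 3 libraries form 1 group. Leaving out each replicate in turn kept the direction of the 3 receptor ratios that rest on all 3 libraries (Ccr7 to Ccr6, Ccr7 to Ccr4 and Ccr6 to Ccr4). The other 6 rest on replicates 1 and 3 only, so leaving 1 out left a single library or changed nothing. Ccr7 kept 57.1% to 66.0% of receptor TPM. The number of receptors at 1 TPM in every library ranged from 3 to 5, with 5 without replicate 2. Scaling TPM over genes without opposite-strand exons raised the mean of Ccr7 to 427 TPM, of Ccr6 to 102 TPM and of Ccr4 to 95.9 TPM and left the ratios within a library as they were. Without division by length, the mean log2 ratio was 1.46 for Ccr7 to Ccr4, -0.49 for Ccr6 to Ccr4, 2.23 for Ccr4 to Ccr8, 6.89 for Ccr7 to Cxcr3, 5.12 for Ccr6 to Cxcr3, 5.57 for Ccr4 to Cxcr3, 3.34 for Ccr8 to Cxcr3 and 2.75 for Cxcr5 to Cxcr3; the lengths alone set these changes. Counts summed over the libraries gave 6.72 for Ccr7 to Cxcr3. Genes called between replicates 3 and 1 numbered 6138, or 4077 scaled to the total of genes without opposite-strand exons, where the log2 ratio of Ccr7 turned to 0.15 and of Cxcr5 to 0.30; with DESeq2 size factors that of Cxcr5 was 0.086. On total counts Ccr6, Ccr7 and Ccr8 were also called lower in replicate 3 (log2 ratios -0.87, -0.62 and -1.25). The median log2 ratio of all tested genes was -0.21 after TMM, -0.12 with DESeq2 size factors, -0.68 on total counts and 0.09 on the total of genes without opposite-strand exons. The count of signalling genes under other scalings was added after seeing the data. Depth limits what replicate 2 can show of any receptor but Ccr7.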
